A study of Saccharomyces cerevisiae with 16 samples.

Results

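In the small ribosomal subunit of budding yeast (Saccharomyces cerevisiae), 32 different proteins whose genes are named RPS0 to RPS31 are assembled on ribosomal RNA. The 56 rows of the count table that hold these genes were taken by systematic name, of 7126 rows in all. All 56 passed the filter on low counts that left 6206 genes for testing, and none was at 0 in any library. Of the 56 genes, 8 are single-copy, among them RPS2 (YGL123W), RPS3 (YNL178W), RPS12 (YOR369C), RPS13 (YDR064W), RPS15 (YOL040C), RPS20 (YHL015W) and RPS31 (YLR167W). The other 48 form 24 pairs of an A and a B copy that encode the same or nearly the same protein.

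The cells were MATa haploids of the BY4741 background and of a single strain (YJB622) in every group, with the deletions hog1Δ::LEU2 and crz1Δ::KanMx, the tagged allele Hcm1-3HA-HIS3 and the auxotrophic alleles met15Δ0, leu2Δ0, ura3Δ0 and his3Δ0. They therefore lacked Crz1, a transcription factor activated by the calcium-dependent phosphatase calcineurin, and Hog1, the osmotic stress MAP kinase, in all samples. Cultures in synthetic medium with ammonium chloride as the nitrogen source received 1 µg/ml FK506, a calcineurin inhibitor, or ET buffer for 15 min before 200 mM CaCl2 was added. RNA was taken at 0, 10, 30 and 60 min in 2 replicate time courses of each pre-treatment, which gave 8 groups of 2 libraries (FK506 and ET at each time). The question was how the level of each gene changed after CaCl2 in each pre-treatment, and whether that change differed between FK506 and ET.

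Ribosomal protein genes are among the most strongly transcribed genes of growing yeast. Their promoters are bound by Rap1 with the activators Fhl1 and Ifh1, at a few genes by Abf1 in the place of Rap1, and they are switched by the TORC1 and protein kinase A pathways, which signal nutrients and growth. A fall of these mRNAs together is a known part of the general stress response of this yeast, and copies of a pair can differ in promoter, intron and untranslated regions even where the protein is the same.

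The Rap1 letters ACCCNNACA (N, any base), searched on both strands of the 500 bases before the start codon, were found in 18 of the 56 genes (32.1%), against 328 of all 6005 promoters of this length (5.46%). Windows around the match are shown for RPS2 because it is single-copy, for RPS10A because its match is on the other strand and for RPS16B because it holds 2 matches. Each is written 5′ to 3′ on the gene's own strand from genome build R64, with the match in capitals. A match of letters describes the sequence and does not show that the factor was bound, and a missing match does not show that it was not bound.
RPS2 chrVII:277209-277257 (plus strand): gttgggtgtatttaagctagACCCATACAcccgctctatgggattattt
RPS10A chrXV:866738-866786 (plus strand): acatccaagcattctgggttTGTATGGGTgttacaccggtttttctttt
RPS16B chrIV:308123-308234 (minus strand): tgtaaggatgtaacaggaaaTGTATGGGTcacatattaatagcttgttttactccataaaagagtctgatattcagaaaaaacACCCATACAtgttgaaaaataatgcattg
The windows lie 408 to 360 bases before the start codon in RPS2, 360 to 312 in RPS10A and 445 to 334 in RPS16B. Of the 2 matches of RPS16B the one farther from the gene is on the other strand.

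Copies of a pair can be told apart by 50-base reads only where their sequences differ. The same stretch of coding sequence is shown for the 4 pairs whose copies changed most unequally in ET, with every base that differs between the copies in capitals. Each stretch is 90 coding bases long, with 7 differences in RPS22, 5 in RPS26, 6 in RPS9 and 6 in RPS30.
RPS22A chrX:75063-75152 (minus strand): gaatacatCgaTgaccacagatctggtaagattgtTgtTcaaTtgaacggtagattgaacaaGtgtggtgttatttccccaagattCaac
RPS22B chrXII:857075-857164 (plus strand): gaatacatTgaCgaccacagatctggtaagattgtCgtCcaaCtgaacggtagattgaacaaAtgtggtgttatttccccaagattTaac
RPS26A chrVII:148469-148558 (minus strand): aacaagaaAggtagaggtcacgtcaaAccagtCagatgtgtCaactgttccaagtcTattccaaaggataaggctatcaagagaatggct
RPS26B chrV:423982-424071 (plus strand): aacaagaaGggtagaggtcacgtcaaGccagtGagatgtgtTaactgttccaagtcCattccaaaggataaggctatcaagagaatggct
RPS9A chrXVI:405751-405840 (plus strand): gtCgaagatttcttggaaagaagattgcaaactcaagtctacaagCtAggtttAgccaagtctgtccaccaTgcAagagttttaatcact
RPS9B chrII:605221-605310 (plus strand): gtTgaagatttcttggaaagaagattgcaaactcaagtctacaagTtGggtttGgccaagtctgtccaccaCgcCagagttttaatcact
RPS30A chrXII:712609-712698 (minus strand): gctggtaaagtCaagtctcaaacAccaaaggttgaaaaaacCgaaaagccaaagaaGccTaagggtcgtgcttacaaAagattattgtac
RPS30B chrXV:678263-678352 (minus strand): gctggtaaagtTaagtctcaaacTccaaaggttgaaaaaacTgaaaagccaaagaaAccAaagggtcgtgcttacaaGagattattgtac
The differences are scattered, so that every 50-base window of RPS22A, RPS22B, RPS26A and RPS26B, 95.0% of those of RPS9A and RPS9B and 82.5% of those of RPS30A and RPS30B occurred at a single place in the genome.
By contrast, 27.9% of the windows of the RPS6 copies were unique, as were 53.2% for RPS4 and 61.8% for RPS24, whose copies are reported as uncertain. Of the 56 genes, 48 had at least 82.5% unique windows. Coding identity between copies ran from 84.3% (RPS27) to 99.2% (RPS6), and 36 of the 56 genes have an intron in the coding sequence.

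The libraries held 11221758 to 11970166 counts each. HOG1, URA3 and MET17 had 0 counts in every library and CRZ1 had 2 counts over all 16, as the labelled genotype has it, and the genes specific to MATa cells summed to 2665 to 4857 CPM (a gene's counts over all counts of the library, times 1000000), against 87.6 to 139 CPM for genes specific to MATα cells. The share of counts in SCR1, a non-coding RNA gene, was larger in later libraries, with means of 4.42%, 5.31%, 5.80% and 6.11% at 0, 10, 30 and 60 min in FK506 and of 4.77%, 5.49%, 6.29% and 8.07% in ET. With the 10 genes of most counts left out, the same numbers of RPS genes were called at 60 min. No added standard was counted, so all levels are relative to the other RNAs of a library, and in these bulk cultures less RNA per cell and fewer cells holding it cannot be told apart.

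The 56 genes together lost most of their share of the RNA in ET cells and a smaller part of it in FK506 cells. They took 5.30 ± 0.375%, 4.23 ± 0.229%, 2.38 ± 0.0785% and 3.17 ± 0.0107% of all counts at 0, 10, 30 and 60 min in FK506 (mean ± SD, n = 2 each). In ET they took 5.65 ± 0.101%, 4.50 ± 0.144%, 2.01 ± 0.164% and 0.806 ± 0.00954% at the same times. The share was lower at every later time than at 0 min in both pre-treatments, and at 60 min the libraries of FK506 were all above those of ET. The plot of the share in each library shows the FK506 libraries above the ET libraries at 30 min as well, by a small gap that widened by 60 min, when FK506 was higher and ET lower than at 30 min.

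**Figure D1:**
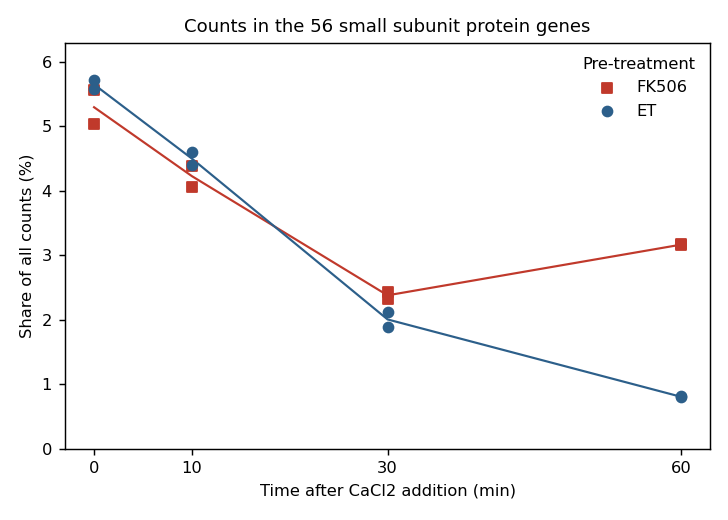
Share of all counts that fell in the 56 small subunit protein genes (%, y axis) by time after CaCl2 (min, x axis) in FK506 (squares) and ET (circles), with each point a library and lines through the means of 2 libraries. The groups lie close together up to 10 min, and at 60 min stand at 3.17% in FK506 and 0.806% in ET.

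Differences between groups were tested gene by gene with limma voom over all 6206 genes (adjusted p under 0.05, Benjamini-Hochberg), on counts scaled with TMM factors, and changes are given on the log2 scale with standard errors. At 10 min, 55 of the 56 genes were called lower than at 0 min in FK506, where 30.2% of all genes were called lower, and 56 of 56 in ET, where the figure was 31.8%. The median change was -0.43 in FK506 and -0.42 in ET, against -0.03 over all genes in each. The exception in FK506 was RPS26A (-0.10 ± 0.06, adjusted p = 0.166). The count in FK506 was 46 without replicate 1 of FK506 at 0 min. The early fall was small for most genes, and only RPS9A and RPS27A were called at -1 or lower, in both pre-treatments, as were 5.35% of all genes in FK506 and 6.28% in ET.

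By 30 min, 55 of the 56 genes were called lower in FK506, against 27.5% of all genes, and 56 of 56 in ET, against 35.3%. The median change was -1.41 in FK506 and -1.80 in ET. The gene not called in FK506 was RPS9A (-0.26 ± 0.12, adjusted p = 0.0845), whose value was -0.50 and called without replicate 2 of FK506 at 30 min and 0.0020 without replicate 1. In ET, 54 genes fell by at least 1, against 13.6% of all genes, the exceptions being RPS25A (-0.96) and RPS30A (-0.85).

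At 60 min, 55 of the 56 genes were called lower than at 0 min in FK506, against 15.7% of all genes, with a median of -0.85. In ET all 56 were called lower, against 34.7% of all genes, with a median of -3.04. The share of each gene's own starting level, taken from mean CPM at 60 min over mean CPM at 0 min, had a median of 60.3% in FK506, with the lowest at 51.4% (RPS9B) and the highest at 118% (RPS9A). In ET the median was 14.3%, with the lowest at 5.71% (RPS26B) and the highest at 43.1% (RPS30A). All 56 fell by at least 1 in ET, against 13.3% of all genes. Of these, 2 genes fell by more than 4, 27 by 3 to 4, 24 by 2 to 3 and 3 by 1 to 2. In FK506 the changes were far more alike, with 51 genes between -1 and 0 and 4 just past -1 (RPS9B -1.08, RPS16A -1.02, RPS20 -1.02 and RPS21A -1.01), where 0.886% of all genes were called at -1 or lower.

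**Figure D2:**
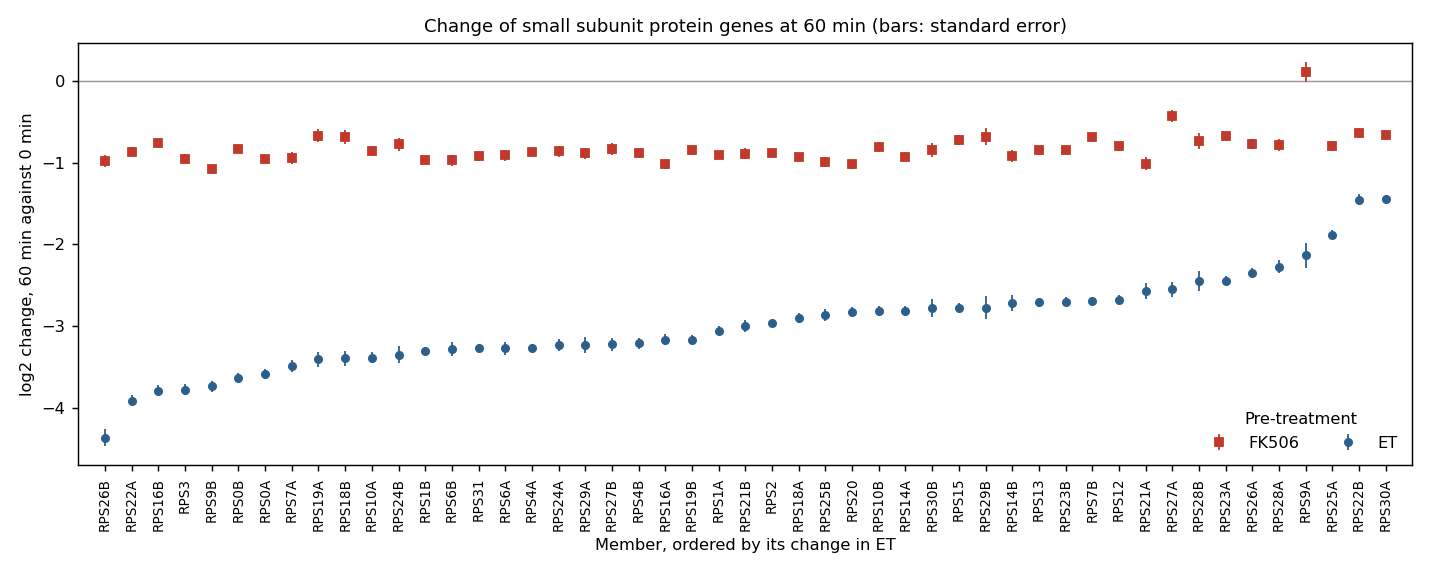
Change of 49 of the 56 genes at 60 min against 0 min (log2, y axis) in FK506 (squares) and ET (circles), ordered by the change in ET, with bars for the standard error of the fit. The ET values run from -4.37 (RPS26B) to -1.45 (RPS30A), and the FK506 values from -1.08 (RPS9B) to 0.11 (RPS9A).

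The course between 30 and 60 min ran in opposite directions. In FK506, 51 of the 56 genes were called higher at 60 min than at 30 min, against 23.0% of all genes, with a median of 0.55, and 6 by at least 1, against 4.21%. In ET, 53 were called lower, against 10.7% of all genes, with a median of -1.23. The 5 genes not called in FK506 included RPS14A (0.14), RPS25A (0.04), RPS26A (0.06) and RPS30A (0.09), and with raw library totals in the place of TMM the values of RPS25A and RPS26A were below 0. The 3 genes not called in ET were RPS9A (0.46), RPS28B (-0.13) and RPS27A (-0.00027), and that of RPS27A changed sign in several alternative fits. The higher value of RPS9A was called with DESeq2 (0.45, adjusted p = 0.0205) and, with limma voom, without replicate 1 (adjusted p = 0.0142) or replicate 2 (adjusted p = 0.0152) of FK506 at 30 min.

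The difference between pre-treatments in the change from 0 min was then tested as an interaction. At 10 min it was called for none of the 56 genes by limma voom, edgeR or DESeq2, while 0.0806% of all genes were called. With no adjustment 0 of the 56 had p under 0.05, against 6.96% of all genes. Its median was 0.01. At 30 min, 43 of the 56 genes were called, all in the direction of a smaller fall in FK506, against 17.8% of all genes called higher, with a median of 0.38, and 3 by at least 1 (RPS9A, RPS27A and RPS24B), against 4.25%. That count was 33 without replicate 2 of ET at 30 min. At 60 min all 56 were called in that direction, against 27.9% of all genes, with a median of 2.17, and 54 had a difference of at least 1, where 11.5% of all genes did. All 56 were called at 60 min without any single library and under each alternative scaling, filter and tool.

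Before CaCl2, at 0 min, a difference between FK506 and ET was called for none of the 56 genes by limma voom, edgeR or DESeq2, while 1.56% of all genes were called. With no adjustment, 33 of the 56 had p under 0.05, against 16.1% of all genes, and the median difference was -0.12. The fitted value was below 0, lower in FK506, for all of the 56 genes but RPS28B (0.02).

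The 8 single-copy genes, whose mRNA is the only source of their protein, followed the common course. The proteins of RPS2 and RPS3 lie at the entry of the mRNA channel. RPS2 had 2515 and 2456 CPM (0 min), 1904 and 1859 (10 min), 1044 and 1095 (30 min) and 1486 and 1454 (60 min) in FK506 (replicates 1 and 2). In ET it had 2617 and 2596 CPM (0 min), 2080.2 and 2027 (10 min), 898 and 826 (30 min) and 377 and 411 (60 min). At 30 and 60 min both FK506 libraries were above both ET libraries, and the change in FK506 exceeded that in ET by 0.38 ± 0.07 at 30 min (adjusted p = 0.000515) and by 2.08 ± 0.07 at 60 min (adjusted p = 1.94e-13).

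RPS3 fell furthest of the single-copy genes in ET. It had 2476 and 2309 CPM (0 min), 1979.7 and 1822 (10 min), 899.9 and 866 (30 min) and 1323 and 1375 (60 min) in FK506, against 2576 and 2550.3 CPM (0 min), 2125 and 2005 (10 min), 934 and 799 (30 min) and 207 and 234 (60 min) in ET. The groups overlapped at 30 min and were well apart at 60 min. RPS3 changed by -0.95 ± 0.06 in FK506 and by -3.78 ± 0.07 in ET at 60 min, a difference of 2.83 ± 0.09 (adjusted p = 1.16e-13), while the difference at 30 min was 0.13 ± 0.09 (adjusted p = 0.27). In ET it stood at 33.8% of its mean at 0 min after 30 min and at 8.59% after 60 min.

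RPS15 and RPS20 encode head proteins, and that of RPS15 is needed for export of small subunit precursors from the nucleus. RPS15 had 2118 and 1828 CPM (0 min), 1711 and 1561 (10 min), 1065 and 1007 (30 min) and 1293 and 1310.2 (60 min) in FK506, against 2115 and 2098 CPM (0 min), 1747 and 1636 (10 min), 859 and 804 (30 min) and 346 and 377 (60 min) in ET. RPS15 had the smallest fall of the single-copy genes in FK506 at 60 min (-0.72 ± 0.06), and its change differed from that in ET by 0.41 ± 0.09 at 30 min and 2.06 ± 0.09 at 60 min (adjusted p = 0.00171 and 3.58e-12). RPS20 had 1107 and 984 CPM (0 min), 981 and 906 (10 min), 563 and 474 (30 min) and 564 and 557 (60 min) in FK506, against 1133 and 1123 CPM (0 min), 978 and 944 (10 min), 550.4 and 478 (30 min) and 197 and 178 (60 min) in ET. RPS20 had the smallest gain of the single-copy genes in FK506, with 0.19 ± 0.06 between 30 and 60 min (adjusted p = 0.0168), a call lost without replicate 2 of FK506 at 30 min or at 60 min and with raw library totals. Its difference between pre-treatments was 0.12 ± 0.08 at 30 min (adjusted p = 0.301) and 1.80 ± 0.09 at 60 min (adjusted p = 1.72e-11).

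RPS12 and RPS31 also belong to the head, and RPS31 is made as a fusion to ubiquitin. RPS31 had 2868 and 2543 CPM (0 min), 2391 and 2292 (10 min), 1153 and 1069 (30 min) and 1525 and 1582 (60 min) in FK506, against 2978 and 2899.7 CPM (0 min), 2523 and 2381 (10 min), 1051 and 898 (30 min) and 361 and 355 (60 min) in ET. It differed between pre-treatments by 0.31 ± 0.08 at 30 min (adjusted p = 0.00469, not called without replicate 2 of ET at 30 min) and by 2.35 ± 0.08 at 60 min (adjusted p = 1.87e-13). RPS12 had 1606 and 1388 CPM (0 min), 1369 and 1304 (10 min), 739 and 684 (30 min) and 939.9 and 929.8 (60 min) in FK506, against 1643 and 1667 CPM (0 min), 1433 and 1427 (10 min), 731 and 651 (30 min) and 310.4 and 295 (60 min) in ET. Its groups overlapped at 30 min, where the difference in change was 0.19 ± 0.08 (adjusted p = 0.0885, called without replicate 1 of FK506 at 0 min or of ET at 0 min), and stood apart at 60 min with 1.89 ± 0.08 (adjusted p = 5.45e-12).

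RPS13 is a protein of the body of the subunit. It had 1442 and 1236 CPM (0 min), 1153 and 1025 (10 min), 735 and 656 (30 min) and 828 and 788 (60 min) in FK506, against 1490.3 and 1390.3 CPM (0 min), 1202 and 1151 (10 min), 652 and 578 (30 min) and 262 and 256 (60 min) in ET. The difference in change was 0.29 ± 0.07 at 30 min (adjusted p = 0.00767) and 1.86 ± 0.08 at 60 min (adjusted p = 2.05e-12). At 0 min replicate 2 of FK506 was the lowest of the 4 libraries for all 8 single-copy genes. The share of all genes with that order was not counted, so no result about these genes is read from it. For RPS13 and RPS15 the libraries of the pre-treatments overlapped at 0 min.

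RPS26B and RPS22A were among the 3 genes that fell furthest in ET at 60 min and among the 3 with the largest difference between pre-treatments. RPS26 lies beside the mRNA exit channel. RPS26B had 555 and 471 CPM (0 min), 354 and 316 (10 min), 90.7 and 94.5 (30 min) and 279 and 286 (60 min) in FK506, against 591 and 564 CPM (0 min), 395 and 362 (10 min), 84.1 and 65.2 (30 min) and 31.5 and 34.5 (60 min) in ET. It changed by -0.98 ± 0.07 in FK506 and -4.37 ± 0.10 in ET at 60 min, and the change differed by 3.38 ± 0.13 (adjusted p = 6.2e-13). Both pre-treatments had brought it to under 100 CPM at 30 min, and it gained 1.68 from 30 to 60 min in FK506, the largest gain of the 56 genes.

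RPS22A encodes a universally conserved body protein. It had 1084 and 928 CPM (0 min), 802 and 703 (10 min), 381 and 358 (30 min) and 617 and 583 (60 min) in FK506, against 1151 and 1108 CPM (0 min), 837 and 768 (10 min), 278 and 228 (30 min) and 88.7 and 87.9 (60 min) in ET. Its difference in change was already 0.72 ± 0.08 at 30 min and reached 3.05 ± 0.09 at 60 min (adjusted p = 1.3e-05 and 8e-14).

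The 3 genes that fell least in ET were RPS30A, RPS22B and RPS25A, and these had the smallest differences between pre-treatments at 60 min. RPS30 is a small body protein near the decoding centre. RPS30A had 427 and 361 CPM (0 min), 384 and 326 (10 min), 288 and 249 (30 min) and 285 and 257 (60 min) in FK506, against 427 and 412 CPM (0 min), 382 and 341 (10 min), 287 and 249 (30 min) and 190.1 and 172 (60 min) in ET. The pre-treatments overlapped at 0, 10 and 30 min and separated at 60 min, with a difference in change of 0.79 ± 0.08 (adjusted p = 3.58e-07). RPS25, a head protein, is known for its part in initiation at viral internal entry sites. RPS25A had 887 and 755 CPM (0 min), 798 and 726 (10 min), 563 and 490.5 (30 min) and 529 and 499 (60 min) in FK506, against 924 and 885 CPM (0 min), 829.5 and 776 (10 min), 549 and 517 (30 min) and 312 and 268 (60 min) in ET. It changed little from 30 to 60 min in FK506 (0.04 ± 0.06, adjusted p = 0.595) and fell by 0.92 in ET, and the difference in its change from 0 min was 1.08 ± 0.08 (adjusted p = 6.91e-09).

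RPS22B had 201 and 185 CPM (0 min), 145 and 144 (10 min), 117 and 110.0 (30 min) and 137 and 134 (60 min) in FK506, against 205 and 204 CPM (0 min), 163 and 148 (10 min), 124 and 105 (30 min) and 89.2 and 86.9 (60 min) in ET. It differed between pre-treatments by 0.08 ± 0.09 at 30 min (adjusted p = 0.537) and by 0.82 ± 0.09 at 60 min (adjusted p = 5.09e-07). Its intron holds the gene of the small nucleolar RNA snR44 on the same strand, which had 32.7 and 30.1 CPM at 60 min in FK506 and 37.0 and 25.2 CPM in ET, against 43.4 and 43.2 CPM at 0 min in FK506 and 40.6 and 41.6 CPM in ET. Its part in the counts of RPS22B was not tested.

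RPS9A, RPS27A and RPS24B had the largest differences in change between pre-treatments at 30 min. RPS9 is a body protein that joins the ribosomal RNA early in assembly, and RPS9A is its minor copy. RPS9A had 135 and 129 CPM (0 min), 45.7 and 36.4 (10 min), 108 and 147 (30 min) and 162 and 149 (60 min) in FK506, against 155 and 144 CPM (0 min), 59.6 and 45.6 (10 min), 25.6 and 31.5 (30 min) and 40.3 and 39.7 (60 min) in ET. In both pre-treatments RPS9A was lower at 10 min than any other of the 56 genes relative to 0 min (-1.75 ± 0.15 in FK506 and -1.59 ± 0.14 in ET). At 30 min it was back near its starting level in FK506 and still falling in ET, where it reached -2.60 ± 0.16. The difference in change was 2.33 ± 0.21 at 30 min and 2.25 ± 0.19 at 60 min (adjusted p = 1.43e-06 and 3.13e-08), so that RPS9A had the largest value of the 56 genes at 30 min. At 60 min in FK506 it stood at 0.11 ± 0.12 (adjusted p = 0.534), the single positive value among the 56 genes.

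RPS27 is a zinc-binding protein of the platform, and RPS27A its minor copy. RPS27A had 144 and 125 CPM (0 min), 62.2 and 55.7 (10 min), 56.8 and 62.9 (30 min) and 113 and 105 (60 min) in FK506, against 159 and 149.9 CPM (0 min), 73.5 and 61.8 (10 min), 31.1 and 29.5 (30 min) and 30.6 and 31.5 (60 min) in ET. Its level in FK506 was the same at 10 and 30 min within the spread of the libraries, whereas ET halted only after 30 min. The difference in change was 1.18 ± 0.12 at 30 min and 2.11 ± 0.12 at 60 min (adjusted p = 5.39e-06 and 1.13e-10). RPS24B, a copy of a body protein, had 323 and 279 CPM (0 min), 173 and 157 (10 min), 85.5 and 102 (30 min) and 190.2 and 192 (60 min) in FK506, against 323 and 327 CPM (0 min), 193 and 184 (10 min), 53.6 and 44.7 (30 min) and 36.2 and 38.9 (60 min) in ET. The difference in its change was 1.05 ± 0.13 at 30 min and 2.58 ± 0.13 at 60 min (adjusted p = 2.76e-05 and 4.27e-11), with the limit that 61.8% of its windows are unique. The fall of RPS24B from 30 to 60 min in ET (-0.42 ± 0.12) was called, but not without replicate 1 of ET at 30 min or either ET library at 60 min.

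**Figure D3:**
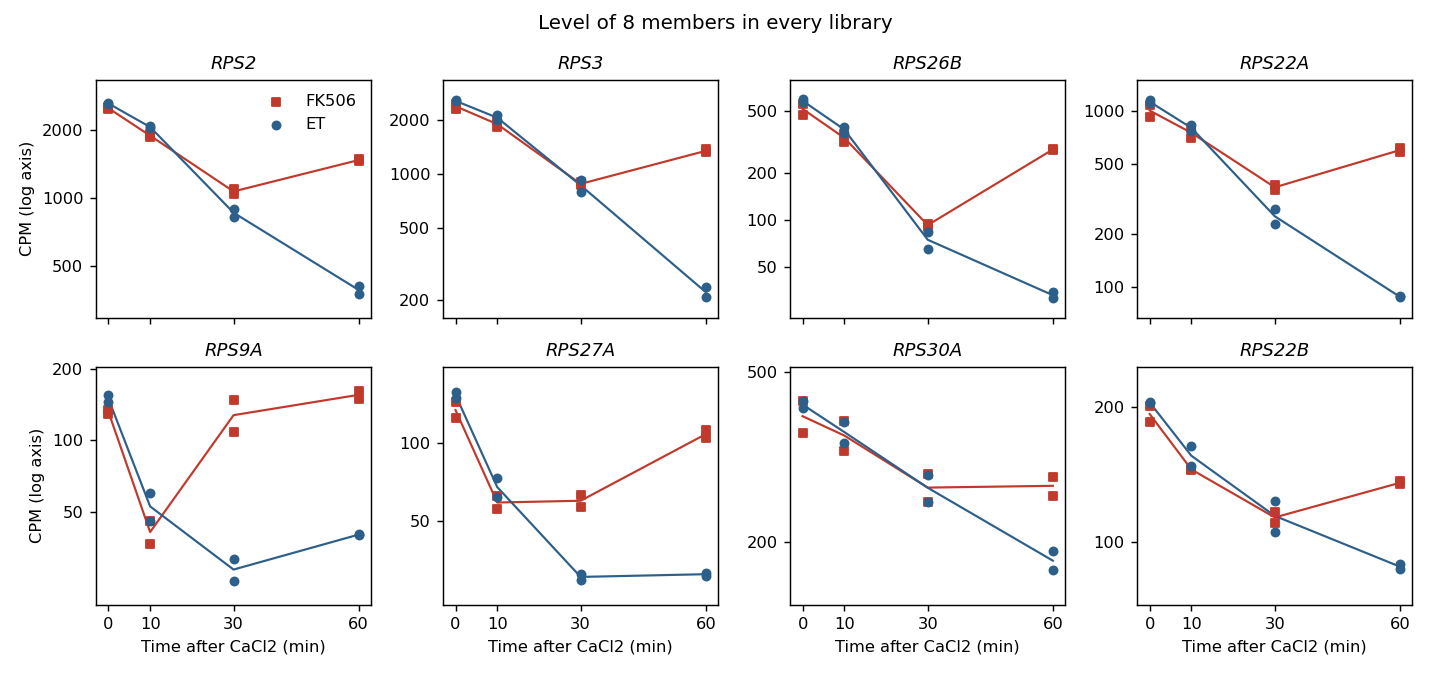
Level of 8 genes (CPM, log axis, a different range in each panel) by time after CaCl2 (min) in FK506 (squares) and ET (circles), each point a library and lines through the means of 2 libraries. RPS2, RPS3, RPS26B and RPS22A lie much closer together at 30 min than at 60 min, RPS9A and RPS27A are already apart at 30 min, and RPS30A and RPS22B show the smallest gap at 60 min.

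The copies of many pairs did not fall in step. The log2 ratio of the A copy to the B copy within a library does not depend on how libraries are scaled. It is compared between times here as a description, with no test. Between 0 and 30 min the ratio moved by at least 0.5 in 12 of the 24 pairs in FK506 and in 18 in ET, and by at least 1 in 2 pairs in FK506 and in 6 in ET. Between 0 and 60 min it moved by at least 0.5 in 1 pair in FK506, RPS9, and in 12 pairs in ET, and by at least 1 in 1 pair in FK506 and in 6 in ET. In ET the shift at 60 min had the same sign in both replicates for 21 of the 24 pairs.

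The largest shift was that of RPS22. The log2 ratio of RPS22A to RPS22B was 2.43 and 2.33 (0 min), 2.46 and 2.28 (10 min), 1.71 and 1.70 (30 min) and 2.18 and 2.12 (60 min) in FK506, against 2.49 and 2.44 (0 min), 2.36 and 2.38 (10 min), 1.17 and 1.12 (30 min) and -0.01 and 0.02 (60 min) in ET. RPS22A gave 81.6% of the counts of the pair at 60 min in FK506 and 50.1% in ET, against 83.9% at 0 min in FK506 and 84.7% in ET. The changes of the copies at 60 min in ET were -3.91 ± 0.07 for RPS22A and -1.45 ± 0.06 for RPS22B.

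RPS26 moved toward the A copy. The log2 ratio of RPS26A to RPS26B was 1.57 and 1.57 (0 min), 2.08 and 2.19 (10 min), 3.55 and 3.26 (30 min) and 1.80 and 1.74 (60 min) in FK506, against 1.49 and 1.502 (0 min), 1.92 and 2.01 (10 min), 3.57 and 3.72 (30 min) and 3.66 and 3.37 (60 min) in ET. The pre-treatments shifted together up to 30 min, after which FK506 came back near its start and ET did not. RPS26A had 1641 and 1395 CPM (0 min), 1494 and 1443 (10 min), 1062 and 903 (30 min) and 972 and 958 (60 min) in FK506, against 1663 and 1597 CPM (0 min), 1490.3 and 1455 (10 min), 1002 and 861 (30 min) and 399 and 356 (60 min) in ET. It changed by -2.35 ± 0.06 at 60 min in ET, against -4.37 ± 0.10 for RPS26B.

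RPS9 was the pair farthest from its starting ratio in FK506 at 60 min. The log2 ratio of RPS9A to RPS9B was -3.80 and -3.71 (0 min), -4.86 and -5.07 (10 min), -2.61 and -2.18 (30 min) and -2.47 and -2.64 (60 min) in FK506, against -3.64 and -3.71 (0 min), -4.61 and -4.89 (10 min), -4.47 and -3.99 (30 min) and -1.997 and -2.15 (60 min) in ET. RPS9A gave 3.09% of the counts of the pair at 10 min in FK506 and 3.57% in ET, and 14.4% at 60 min in FK506 and 19.0% in ET. RPS9B had 1870.4 and 1685 CPM (0 min), 1326 and 1222 (10 min), 659 and 669 (30 min) and 895 and 932 (60 min) in FK506, against 1924 and 1892 CPM (0 min), 1456 and 1357 (10 min), 568 and 499.7 (30 min) and 161 and 176 (60 min) in ET. Unlike RPS9A, RPS9B followed the common course, with -1.08 ± 0.06 in FK506 and -3.74 ± 0.06 in ET at 60 min.

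In RPS30 the log2 ratio of RPS30A to RPS30B was 1.09 and 1.19 (0 min), 1.36 and 1.38 (10 min), 1.74 and 1.83 (30 min) and 1.28 and 1.36 (60 min) in FK506, against 1.02 and 1.18 (0 min), 1.54 and 1.36 (10 min), 2.17 and 2.45 (30 min) and 2.49 and 2.36 (60 min) in ET. RPS30B had 201 and 158 CPM (0 min), 149 and 125 (10 min), 86.1 and 69.9 (30 min) and 117 and 100.1 (60 min) in FK506, against 211 and 181 CPM (0 min), 131 and 133 (10 min), 64.0 and 45.5 (30 min) and 33.8 and 33.4 (60 min) in ET. It changed by -0.84 ± 0.09 in FK506 and -2.78 ± 0.11 in ET at 60 min, against -0.66 ± 0.06 in FK506 and -1.45 ± 0.06 in ET for RPS30A. Of the other pairs, RPS25 (0.99) also moved toward the A copy in ET at 60 min, and RPS7 (-0.79) and RPS10 (-0.57) toward the B copy. In RPS0 (0.04), RPS4 (-0.06), RPS6 (0.01) and RPS14 (-0.09) the copies ended with nearly the ratio they had at 0 min, although for RPS4 and RPS6 a large part of the 50-base windows occur in more than one place.

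**Figure D4:**
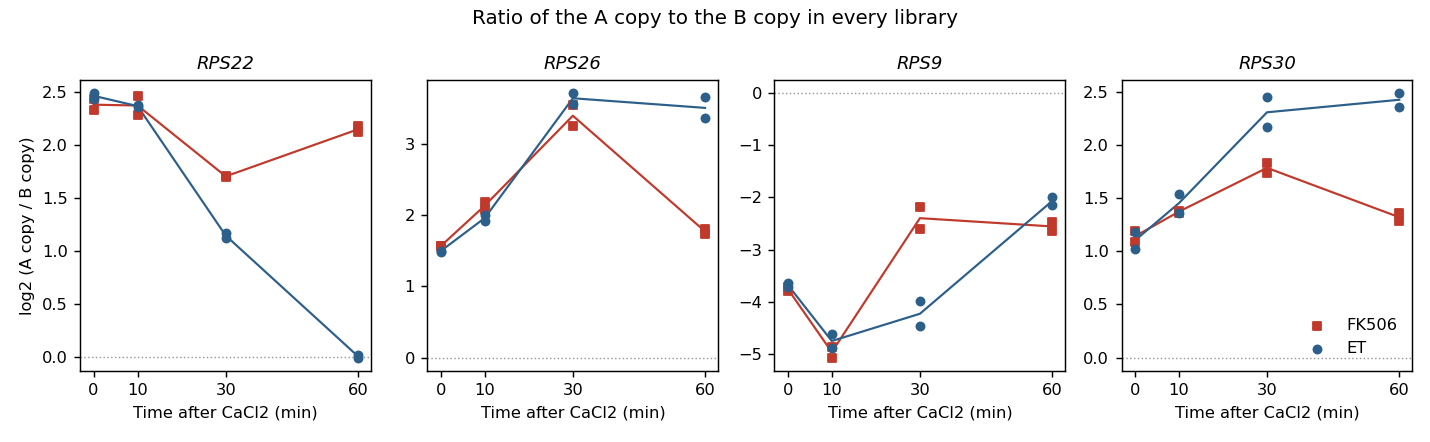
Log2 ratio of the A copy to the B copy (y axis, a different range in each panel, dotted line at equal counts) by time after CaCl2 (min) in FK506 (squares) and ET (circles) for 4 pairs, each point a library and lines through the means of 2 libraries. In ET the RPS22 ratio ends at 0.01 and the RPS26 ratio at 3.51, while in FK506 both end near their values at 0 min.

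Per length, the mRNA levels for the different proteins lay within a narrow range before CaCl2. Levels are given as CPM per kilobase of unique 50-base windows, which assumes that reads matching several places were not counted. At 0 min the 8 single-copy genes lay between 3289.5 ± 357 (RPS13) and 6599 ± 561 (RPS31) in FK506, and between 3539 ± 174 and 7168 ± 135 in ET (mean ± SD, n = 2). Those named above stood in ET in the order RPS13, RPS20, RPS2, RPS3, RPS12, RPS15 and RPS31, in which RPS13 differed from RPS20 and from RPS2 by less than the sum of their SDs. The copies taken singly had a median of 2319.6 in FK506 and 2503 in ET, and the sums of A and B a median of 4259 in FK506 and 4687 in ET, against 3729 in FK506 and 4062 in ET for single-copy genes. With copies summed, the 32 proteins spanned 2.95-fold in FK506 and 2.96-fold in ET, where single genes spanned 19.2-fold in FK506 and 18.2-fold in ET across the copies, with RPS9A lowest and RPS26A highest. With all coding bases as the length, the span over the 32 proteins was 5.61-fold in FK506 and 5.603-fold in ET.

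At 60 min the span over the 32 proteins was 2.76-fold in FK506 and 5.57-fold in ET. RPS3 was the lowest in ET, at 327 ± 28.3, and the sum of the RPS30 copies the highest, at 1818. In FK506 the lowest was the sum of the RPS29 copies, at 1454, and the highest the sum of the RPS26 copies, at 4009. The order of these single-copy genes in ET was then RPS3, RPS2, RPS20, RPS13, RPS12, RPS31 and RPS15, in which RPS20 differed from RPS2 and from RPS13 by less than the sum of their SDs.

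Across the 56 genes the changes in FK506 and in ET, which share no libraries, were alike at first and less so later. Pearson's r was 0.97 at 10 min, 0.72 at 30 min and 0.45 at 60 min, and Spearman's rho 0.91, 0.82 and 0.43, over 56 genes, which are not independent. The medians of groups of the genes lay close together. Head proteins (22 genes) had a median at 60 min of -0.83 in FK506 and -3.04 in ET, and body and platform proteins (34 genes) -0.86 in FK506 and -3.03 in ET. Proteins with a bacterial relative (24 genes) had -0.86 in FK506 and -2.93 in ET, and the others (32 genes) -0.85 in FK506 and -3.11 in ET. Genes with an intron (36) had -0.85 in FK506 and -3.17 in ET, and those without (20) -0.86 in FK506 and -2.91 in ET. Single-copy genes had -0.87 in FK506 and -2.89 in ET, A copies -0.86 in FK506 and -3.05 in ET, and B copies -0.84 in FK506 and -3.19 in ET.

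The 18 genes with the Rap1 letters had a median of -3.19 in ET at 60 min, and the 38 without them -2.85, from -4.37 (RPS26B) to -1.45 (RPS30A). The difference between pre-treatments had a median of 2.26 with the letters and 2.11 without them. The match of Abf1 was found in 6 of the 56 genes (10.7%, against 18.1% of all promoters), with a median of -2.77 in ET at 60 min. The STRE letters CCCCT, known for the stress factors Msn2 and Msn4, were in 13 (23.2%, against 34.0%), the PAC letters GATGAG in 12 (21.4%, against 28.2%) and the RRPE letters AAAAATTT, bound by Stb3, in 12 (21.4%, against 20.5%). The 12 genes with the RRPE letters had a median of -2.79 in ET at 60 min and the 44 without them -3.05.

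Genes of the large subunit moved much as those of the small subunit did. Of 81 listed, 77 were tested, and at 60 min against 0 min 74 were lower and none higher in FK506 (median -0.83), against 15.7% of all genes lower, while 75 were lower and 1, RPL15B (0.30), higher in ET (median -3.08), against 34.7% lower and 33.6% higher. The difference between pre-treatments at 60 min was called for 75, all higher, against 27.9% of all genes, with a median of 2.28. Among the 81 rows, RPL22A, RPL39 and RPL43A had at most 2 counts in any library, RPL33A 2 to 9 and RPL28 3 to 13. The cause of these low counts was not tested. ASC1 and STM1, whose proteins bind the small subunit and which are not among the 56 genes, changed by -1.11 ± 0.04 and -0.96 ± 0.05 in FK506 and by -2.06 ± 0.04 and -2.21 ± 0.05 in ET at 60 min.

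The 17 genes for maturation factors and chaperones of the small subunit were mostly lower at 10 min in both pre-treatments. At that time 13 were lower and none higher in FK506 (median -1.09), where 30.2% of all genes were lower and 24.4% higher, and 14 were lower and 1 higher in ET (median -1.29), where 31.8% of all genes were lower and 26.6% higher. The furthest in each was TSR1, a GTPase-like assembly factor (-2.46 ± 0.21 in FK506 and -2.21 ± 0.18 in ET). At 60 min 2 were lower in FK506 (YAR1 -0.40 and, named after its value was seen, DIM1 -0.37, with a median of -0.07), against 15.7% of all genes, and 16 were lower and 1 higher in ET (median -1.84), against 34.7% and 33.6%. The furthest in ET was LTV1, an export and assembly factor, which had 28.8 and 33.2 CPM at 60 min in FK506 and 4.66 and 4.79 CPM in ET, against 29.0 and 23.8 CPM at 0 min in FK506 and 41.1 and 39.8 CPM in ET, so that FK506 differed before CaCl2 by -0.65 ± 0.16 (adjusted p = 0.0489). The gene that rose in ET was HRR25, a casein kinase (0.45 ± 0.07). The difference at 60 min was called higher for 15, against 27.9% of all genes, and lower for HRR25. From 30 to 60 min in ET none of the 17 was called in either direction by limma voom, while 20.5% of all genes were called. With no adjustment 3 of the 17 had p under 0.05, against 32.5% of all genes.

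Of 12 genes for known regulators of ribosomal protein genes, 3 were higher and 1 lower at 60 min in FK506, where 13.1% of all genes were higher and 15.7% lower, and 3 were higher and 4 lower in ET, where 33.6% were higher and 34.7% lower. These shares are near those of all genes. STB3, a repressor that binds RRPE letters, had 66.6 and 65.4 CPM (0 min), 85.6 and 98.4 (10 min), 109 and 109 (30 min) and 86.6 and 97.9 (60 min) in FK506, against 57.0 and 62.2 CPM (0 min), 97.0 and 104 (10 min), 179 and 193 (30 min) and 333 and 313 (60 min) in ET. It rose by 0.36 ± 0.08 in FK506 and by 2.20 ± 0.08 in ET at 60 min, and the difference in change was -1.85 ± 0.12 (adjusted p = 6.03e-10). The lowest of the list in ET was MRS6, a binding partner of Sfp1 (-1.18 ± 0.06), and the largest positive difference between pre-treatments that of the co-activator gene IFH1 (1.04 ± 0.16, adjusted p = 3.86e-05).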

How the data were processed

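Stranded, Ribo-Zero depleted RNA-seq libraries (single-end 50-base reads) from 16 cultures were analysed. The authors aligned reads to the genome and deposited raw counts per gene. The submitters' processing notes name TopHat2 2.1.1, Subread 1.5.3 and featureCounts, whereas the study's methods name HTSeq as the counter, so the tool that made the table, and its treatment of reads matching several places, is not settled here.

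The deposited counts, 11221758 to 11970166 per library, were filtered (filterByExpr, minimum count 10), scaled by TMM (edgeR 4.0.16) and fitted with limma voom 3.58.1 in R 4.3.3, with group and replicate number as terms and an estimated correlation within each time course (-0.117). The study's methods name a batch term without defining it, and the replicate number of the labels was used. With 16 libraries, 7 residual degrees of freedom remained. P-values were adjusted (Benjamini-Hochberg) over 6206 genes in each of 12 contrasts. The replicates are described as biological, and no pair of replicate libraries agreed within sampling noise. DESeq2 1.42.0, edgeR's quasi-likelihood test, other scalings and filters and leaving out each library were the alternatives. The fit was tested on simulated data.

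Copy ratios used counts plus 0.5. Genes, promoters and unique 50-base windows came from assembly R64 (coding parts only), in which 6048 identifiers matched. Values in every library were given for single-copy genes, for the 3 highest and 3 lowest genes in the ET change at 60 min and in the differences at 30 and 60 min, and for the 4 pairs whose copies changed most unequally in ET. Of other lists the highest and lowest genes were named. Results for some single genes are not reported here, and these genes stay in every count and median over the 56. Members and lists were chosen with earlier results of these data known. The level that a count of 0 allows, 3 counts, was at most 0.267 CPM, which covers counting error only.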

Additional observations from a re-analysis of the deposited data

Results flagged for a closer look

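The change after CaCl2 differed between FK506 and ET, by the test of the difference itself in limma voom, for 43 of the 56 genes at 30 min and for 56 at 60 min. At 30 min the log2 difference was 0.38 for RPS2, 0.29 for RPS13, 0.41 for RPS15 and 0.31 for RPS31. It was 2.33 for RPS9A, 1.18 for RPS27A and 1.05 for RPS24B. At 60 min the single-copy genes differed by 2.08 (RPS2), 2.83 (RPS3), 1.89 (RPS12), 1.86 (RPS13), 2.06 (RPS15), 1.80 (RPS20) and 2.35 (RPS31). The smallest differences at 60 min were 0.79 for RPS30A, 0.82 for RPS22B and 1.08 for RPS25A, and among the 3 largest were 3.38 for RPS26B and 3.05 for RPS22A. Every one of these values was positive, which means a smaller fall in FK506.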

How the results depend on the processing

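No gene's call in ET at 30 or 60 min, in FK506 at 60 min or in the difference at 60 min changed under any alternative scaling, filter, tool or model term or without any single library. A log2 change of at least 1 as an added threshold left 2 genes in FK506 at 10 min, 2 in ET at 10 min, 4 in FK506 at 60 min, 6 for FK506 from 30 to 60 min and 3 for the difference at 30 min. Without subtracting 0 min, 1 gene (RPS7B, lower) was called between FK506 and ET at 10 min. The share of all genes called in that direct comparison is not given here, so nothing is read from this call. Raw library totals moved the median of all genes by 0.23 in ET at 60 min, where 2973 genes were higher and 1535 lower, against 2086 and 2155 with TMM. In FK506 at 60 min the split was 1545 higher and 556 lower, against 812 and 973, and for the difference 1425 and 1860, against 1734 and 1490. With raw totals the median difference at 10 min was -0.00105, and from 30 to 60 min RPS25A (-0.0339) and RPS26A (-0.0225) in FK506 and RPS27A (0.0336) in ET changed sign. RPS27A was also positive with edgeR (0.000981), without the replicate block (0.00138) and with at least 10 counts in every library (0.00207).

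Leaving out each library in turn gave 46 to 55 genes for FK506 at 10 min, 54 to 56 for ET at 10 min, 55 to 56 for FK506 at 30 min, 47 to 52 for FK506 and 51 to 54 for ET from 30 to 60 min, 33 to 45 for the difference at 30 min and 0 to 1 at 0 min. Values that crossed 0 were the median difference at 10 min (-0.0323 to 0.0603), RPS9A in FK506 at 30 min (-0.523 to 0.0020), RPS25A (-0.0141 to 0.0968) and RPS26A (-0.0452 to 0.157) in FK506 from 30 to 60 min, RPS27A (-0.0557 to 0.0479) and RPS28B (-0.323 to 0.0568) in ET over that time, and RPS22B in the difference at 30 min (-0.0510 to 0.210). With 1 replicate, the shift of the copy ratio at 60 min crossed 0 in FK506 for RPS4 (-0.0271 to 0.0463), RPS14 (-0.0357 to 0.0308) and RPS28 (-0.128 to 0.0233), and in ET for RPS6 (-0.0199 to 0.0334), RPS14 (-0.246 to 0.0616) and RPS28 (-0.0409 to 0.375). The cause was not tested.

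Same-numbered FK506 and ET libraries deviated together with correlations of 0.133, 0.176, 0.0817 and 0.170 at 0, 10, 30 and 60 min, of which that at 30 min was not over 0.1. The numbers were therefore not taken as evidence that the samples were paired by design. The main fit nevertheless held the replicate number as a term across all groups, so its p-values rest on that block. The same-numbered library was the closer one at each time, a hint from the data and not from the design. Without the replicate block, 50 genes were called for FK506 and 54 for ET at 10 min, 47 for FK506 from 30 to 60 min and 35 for the difference at 30 min (RPS13 among those lost at 30 min, and RPS20 among those lost from 30 to 60 min), and the counts of the other comparisons were unchanged. With all coding bases as the length, the median level of single-copy genes in ET at 0 min was 3688, against 4062 with unique windows, and that of copies 1602, against 2503. Fits that left out a whole replicate number had no residual degrees of freedom and gave values only.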
